A study of Mus musculus with 18 samples.

Results

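Immediate early genes are switched on within minutes of a stimulus without new protein synthesis. In cortical neurons, calcium entry and ERK signalling act through transcription factors such as SRF and CREB to induce them, and because their transcripts are short-lived their level in brain tissue is widely used as a readout of recent neuronal activity. The group described here holds 10 such genes, chosen by symbol: Fos, Fosb, Junb, Egr1, Egr2, Egr4, Arc, Nr4a1, Npas4 and Ier2. All 10 were present in each of the 3 deposited tables, among 13784 genes. Several of them are also induced in glia and vascular cells, and whole tissue does not show which cells gave the transcripts.

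RNA was measured in bulk cortex of 18 mice. The groups were 5 mice lacking Chd8 in astrocytes (conditional knockout, cKO) that received lipopolysaccharide (LPS), 5 control mice that received LPS, 4 cKO mice that received saline and 4 control mice that received saline. Chd8 encodes a chromatin remodeller, and LPS is a bacterial outer-membrane component that sets off innate immune signalling. The labels give an intraperitoneal dose of 5 mg/kg, an age between 4 and 6 months and tissue collection 72 hours later. The Cre driver, the alleles of the controls and the sex of the mice are not given in the sources used here. Every sample title carries the word saline, and the groups were taken from the genotype label.

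The values are those of 3 tables of comparisons, so the level in each mouse and the depth of each library are unknown. Group levels in CPM (reads of a gene scaled to the total of its library) were back-calculated from the fold changes and mean levels, and are estimates. Chd8 had an estimated log2 CPM of 6.96 in cKO LPS, 6.96 in control LPS, 6.51 in cKO saline and 6.62 in control saline, so whole cortex does not check a deletion in astrocytes. The groups differed in sex-linked transcripts. Xist had an estimated log2 CPM of 5.91 in cKO LPS, 7.33 in control LPS, 4.35 in cKO saline and 7.47 in control saline, and Ddx3y of 5.71 in cKO LPS, 3.68 in control LPS, 5.87 in cKO saline and -7.19 in control saline. All 12 pan-neuronal markers (such as Rbfox3, Snap25 and Syt1) were measured, with a summed log2 CPM between 12.99 and 13.03 in the 4 groups. Single markers moved in both directions. At an FDR below 0.05, 3 of 12 rose and 1 fell after LPS in cKO mice, against 10.9% and 8.52% of all genes. In controls 0 rose and 1 fell, against 6.46% and 3.31%. In the authors' deposited table for cKO mice, Rbfox3 rose by 0.58 ± 0.09 (log2 fold change ± SE, FDR = 0.00653) and Tubb3 fell by 0.36 ± 0.10 (FDR = 0.0310). In bulk cortex, fewer cells of a type and less RNA per cell cannot be told apart.

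The promoters of 4 members are shown because these are the 2 members that fell in cKO mice after LPS, Egr2 and Fos, and the 2 with the smallest difference between genotypes after LPS, Fosb and Egr4. The sequences are RefSeq windows on GRCm38.p6, 5′ to 3′ on the strand of the gene, from 250 bases before the transcription start to 50 after it. The deposited tables were made with GRCm39. Of the 5 windows listed for Egr2, the one at the principal transcript start of GENCODE M21 is shown. Capitals mark matches on either strand to the CArG box (the site of SRF), to the core TGACG of the cyclic AMP response element bound by CREB, to the EGR site (GCGTGGGCG or GCGGGGGCG) and to the TATA box (TATAAA).
Egr2, chr10:67537619-67537918, plus strand: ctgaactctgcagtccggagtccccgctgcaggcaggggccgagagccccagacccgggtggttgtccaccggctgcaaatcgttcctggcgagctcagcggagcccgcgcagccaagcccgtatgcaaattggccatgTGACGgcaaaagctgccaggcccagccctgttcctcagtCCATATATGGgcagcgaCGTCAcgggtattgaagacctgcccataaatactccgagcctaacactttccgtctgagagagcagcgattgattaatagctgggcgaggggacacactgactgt
Fos, chr12:85473640-85473939, plus strand: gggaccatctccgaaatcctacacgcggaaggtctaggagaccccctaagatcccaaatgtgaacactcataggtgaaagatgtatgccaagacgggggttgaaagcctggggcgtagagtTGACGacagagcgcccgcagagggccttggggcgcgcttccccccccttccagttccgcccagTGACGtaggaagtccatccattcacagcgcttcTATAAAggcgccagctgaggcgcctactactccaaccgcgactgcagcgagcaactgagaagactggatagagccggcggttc
Fosb, chr7:19309996-19310295, minus strand: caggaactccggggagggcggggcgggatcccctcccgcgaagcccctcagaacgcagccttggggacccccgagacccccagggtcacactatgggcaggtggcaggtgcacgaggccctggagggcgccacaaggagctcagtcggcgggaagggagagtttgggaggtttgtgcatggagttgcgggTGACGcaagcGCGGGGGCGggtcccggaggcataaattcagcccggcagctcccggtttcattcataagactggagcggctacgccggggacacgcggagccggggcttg
Egr4, chr6:85513540-85513839, minus strand: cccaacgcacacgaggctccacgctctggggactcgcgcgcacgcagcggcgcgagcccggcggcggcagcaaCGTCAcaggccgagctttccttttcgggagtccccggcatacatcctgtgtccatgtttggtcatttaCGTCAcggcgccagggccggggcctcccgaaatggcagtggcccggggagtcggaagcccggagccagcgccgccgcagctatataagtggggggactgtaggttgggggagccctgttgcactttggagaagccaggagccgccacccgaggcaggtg

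Of the 10 members, 7 matched a window (all but Egr1, Arc and Ier2). The start used for the Npas4 window lay 345 bases from the principal transcript start, and that for Junb 30 bases from it. The core TGACG was present in 7 of these 7 windows, against 20.8% of all 32851 windows in the table. A CArG box was found in the Egr2 window, from -72 to -63 relative to the start, and in 1.63% of all windows. The EGR site was found in Fosb and Nr4a1, and in 3.47% of all windows. TATAAA was found in Fos, from -33 to -28, and in Junb, from 1 to 6 and so not before the start used. It was found in 13.6% of all windows. The full element TGACGTCA, which contains the core, was in 0 of the 7 windows and in 1.79% of all. These matches describe letters in short windows only.

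In cKO cortex, Egr2 and Fos fell after LPS, while in control cortex no member passed the threshold. Egr2, a zinc-finger transcription factor of the EGR family, was estimated at 5.65 CPM in cKO LPS, 17.3 CPM in control LPS, 17.2 CPM in cKO saline and 14.9 CPM in control saline. The cKO LPS group was low, and the other 3 groups lay close together. In the authors' deposited table for cKO mice, Egr2 fell by 1.60 ± 0.26 (log2 fold change ± SE, 5 mice with LPS against 4 with saline, FDR = 0.00669), which is 3.04-fold. Its fold change was the 6th lowest of all genes in that table. Fos, which pairs with JUN proteins to form the transcription factor AP-1, was estimated at 22.7 CPM in cKO LPS, 44.7 CPM in control LPS, 39.2 CPM in cKO saline and 37.1 CPM in control saline. Fos fell by 0.79 ± 0.23 in the authors' deposited table for cKO mice (FDR = 0.0401), which is 1.73-fold. These were 2 of 10 members called at an FDR below 0.05, both lower, against 8.52% of all genes called lower and 19.5% called in either direction. No member was called higher, against 10.9% of all genes. The deposited log2 fold change was below 0 for 6 of 10 members, against 50.2% of all genes.

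**Figure D1:**
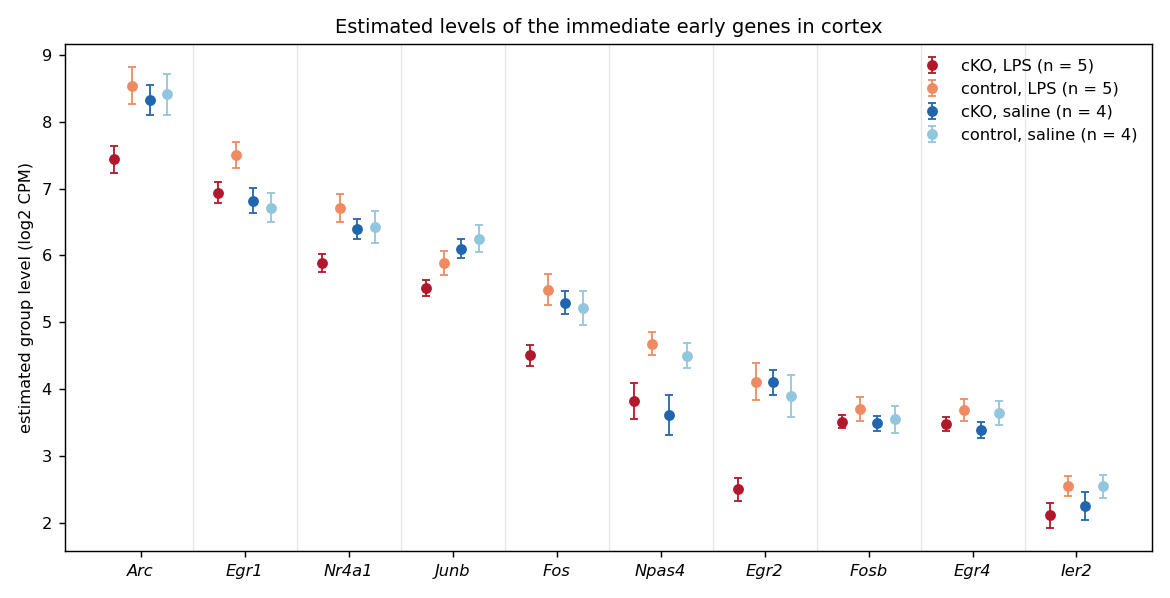
Estimated level (log2 CPM) of each immediate early gene in the 4 groups, with bars for the standard error of the group mean implied by the deposited tests. Egr2, Fos, Arc, Nr4a1, Junb and Ier2 have their lowest level in cKO mice given LPS. Both cKO groups lie below both control groups for Npas4, and by a smaller gap for Arc, Nr4a1, Fosb, Egr4 and Ier2.

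In the authors' deposited table for cKO mice, 3 further members had negative values with an FDR between 0.05 and 0.1. Arc encodes a synaptic protein that promotes AMPA receptor endocytosis, and was estimated at 173 CPM in cKO LPS, 373 CPM in control LPS, 322 CPM in cKO saline and 340.3 CPM in control saline. Its log2 fold change in the authors' deposited table for cKO mice was -0.89 ± 0.30 (FDR = 0.0624). Nr4a1, an orphan nuclear receptor, was estimated at 59.3 CPM in cKO LPS, 105 CPM in control LPS, 84.4 CPM in cKO saline and 85.6 CPM in control saline. Its log2 fold change in that deposited table was -0.51 ± 0.20 (FDR = 0.0932). For both genes, as for Egr2 and Fos, the cKO LPS group was the lowest and the control LPS group the highest. Junb, a JUN-family partner of FOS proteins, was estimated at 45.7 CPM in cKO LPS, 59.4 CPM in control LPS, 68.7 CPM in cKO saline and 76.2 CPM in control saline. Its log2 fold change after LPS was -0.59 ± 0.19 in cKO mice (FDR = 0.0518) and -0.36 ± 0.27 in controls (FDR = 0.402) in the authors' deposited tables. Among the 10, Junb alone had a negative value after LPS in both genotypes. At an unadjusted p below 0.05, 5 of 10 members were lower after LPS in cKO mice, against 16.7% of all genes.

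The remaining 5 members were not called in cKO mice, with deposited log2 fold changes between -0.14 and 0.20. Fosb, a second FOS-family gene, was estimated at 11.4 CPM in cKO LPS, 13.1 CPM in control LPS, 11.2 CPM in cKO saline and 11.7 CPM in control saline. The 4 groups lay close together, and the 95% interval of the deposited log2 fold change in cKO mice was -0.31 to 0.35. Egr4, another EGR-family factor, was estimated at 11.2 CPM in cKO LPS, 12.9 CPM in control LPS, 10.47 CPM in cKO saline and 12.5 CPM in control saline, with an interval of -0.26 to 0.45 in cKO mice. Ier2, which encodes a nuclear protein, was estimated at 4.32 CPM in cKO LPS, 5.88 CPM in control LPS, 4.74 CPM in cKO saline and 5.83 CPM in control saline, with an interval of -0.76 to 0.49 in cKO mice. The intervals of Fosb and Egr4 exclude a fall as large as the estimate for Fos, and that of Ier2 excludes one as large as the estimate for Fos only narrowly. The tables hold 1 value for each gene, so isoforms were not separated.

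In control mice, 0 of 10 members were called 72 hours after LPS, against 9.76% of all genes (6.46% higher and 3.31% lower). The median log2 fold change of the members was 0.17, against 0.00 for all genes. Only 1 of 10 members lay below 0, against 50.5% of all genes. Egr1, an EGR-family factor induced by SRF and ELK proteins, was estimated at 123 CPM in cKO LPS, 182 CPM in control LPS, 113 CPM in cKO saline and 105 CPM in control saline. The control LPS group was the highest, and the other 3 lay closer together. In the authors' deposited table for controls, its log2 fold change was 0.79 ± 0.29 (p = 0.0228, FDR = 0.110, edgeR over all genes), and it was the 1 member at an unadjusted p below 0.05, against 16.2% of all genes higher at that level. In cKO mice Egr1 had 0.12 ± 0.24 (FDR = 0.753) in the authors' deposited table. In the same deposited table for controls, Ddx3y rose by 10.87 ± 2.63 (FDR = 0.0351), so the LPS and saline controls differed in Y-linked transcripts. The part of this in the values of the members was not tested.

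**Figure D2:**
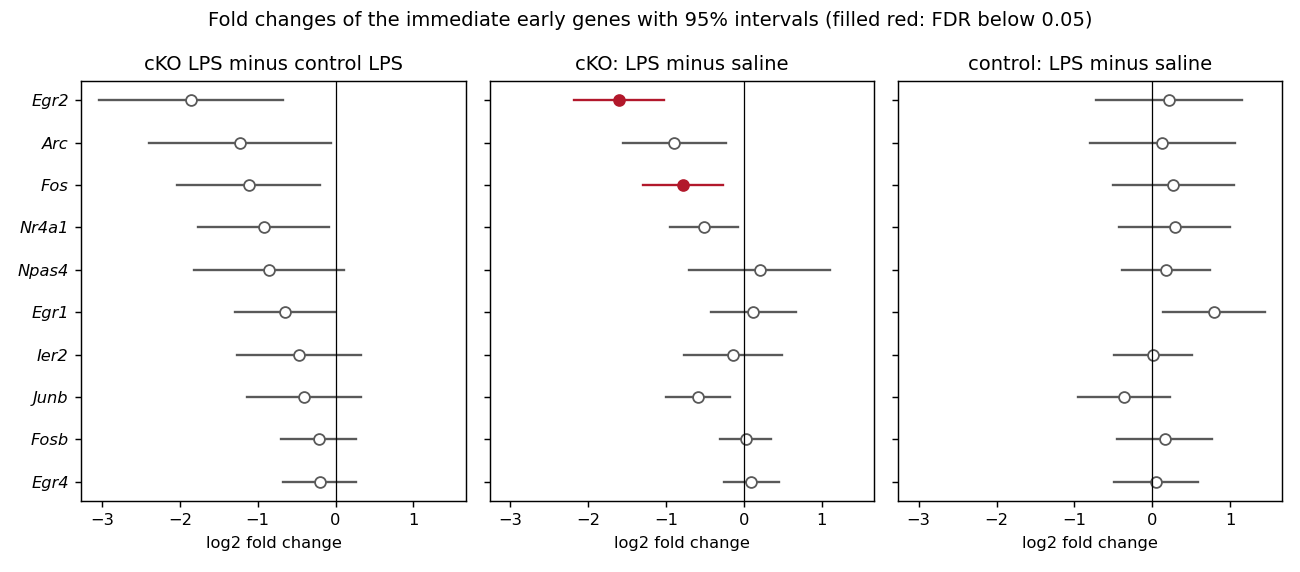
Log2 fold changes of the 10 genes from the authors' deposited tables with 95% intervals from the deposited F statistics, for cKO LPS minus control LPS, LPS minus saline in cKO and LPS minus saline in controls. Egr2 and Fos in cKO mice are the filled points with an FDR below 0.05, and their intervals are wider in controls than in cKO mice.

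The precision differed between the LPS comparisons. The standard error of the Fos fold change was 0.23 in cKO mice and 0.35 in controls, and that of Egr2 was 0.26 in cKO mice and 0.42 in controls. At the largest p called in each table, Fos needed a log2 change of 0.74 in cKO mice and 1.26 in controls to be called. Egr2 needed 0.82 in cKO mice and 1.51 in controls. The lack of a call in controls does not show that these genes were unaffected there.

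Whether the response to LPS differed between genotypes was tested gene by gene, by subtracting the control log2 fold change from the cKO one and adjusting over all genes. No member passed (0 of 10, against 0.00725% of all genes). The difference was below 0 for 8 of 10 members, against 50.1% of all genes. At an unadjusted p below 0.05, 3 of 10 members (Egr2, Fos and Nr4a1) were lower, against 3.5% of all genes. For Egr2 the difference was -1.82 ± 0.60 (95% interval -2.99 to -0.65, adjusted p = 0.433), and for Fos it was -1.06 ± 0.46 (95% interval -1.97 to -0.15, adjusted p = 0.683). For Arc it was -1.02 ± 0.56 (adjusted p = 0.788), for Nr4a1 -0.80 ± 0.41 (adjusted p = 0.763) and for Egr1 -0.67 ± 0.43 (adjusted p = 0.831). Junb had -0.23 ± 0.37, Ier2 -0.15 ± 0.37 and Fosb -0.14 ± 0.32. Npas4 had 0.02 ± 0.49 and Egr4 0.05 ± 0.30, the values above 0 among the 10. With standard errors taken from the F statistic and a normal test, 1 of 10 members passed (Egr2, adjusted p = 0.0383), against 0.747% of all genes. With Satterthwaite degrees of freedom, a setting added after the tables were opened, the adjusted p of Egr2 was 0.288.

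**Figure D3:**
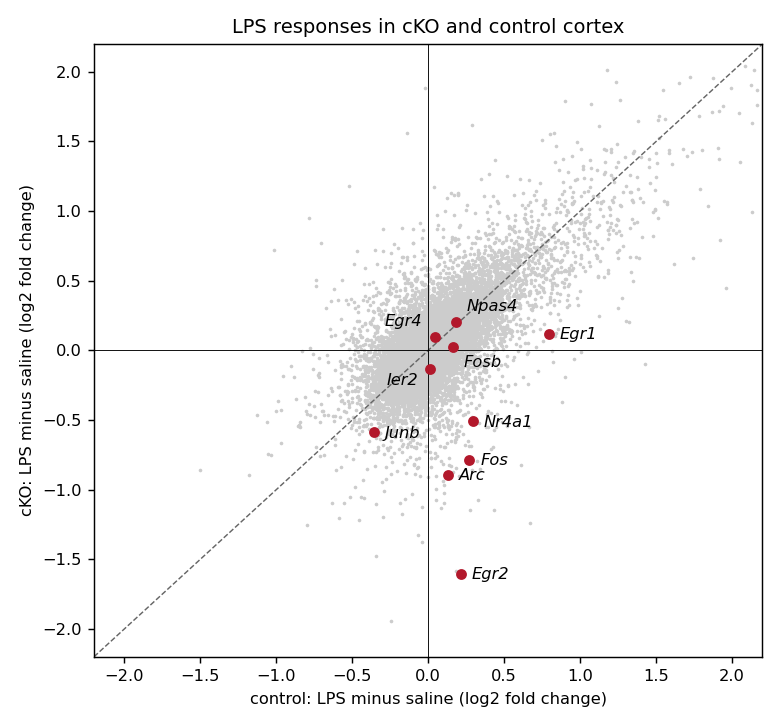
Log2 fold change after LPS in cKO mice (vertical) against that in controls (horizontal), with all genes in grey, the 10 immediate early genes marked and equal responses on the dashed line. Egr2, Arc, Fos, Nr4a1 and Egr1 lie below the line, Npas4 and Egr4 lie near it, and 43 genes fall outside the axes, which end at 2.2.

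After LPS, all 10 members had lower deposited values in cKO than in control cortex, and none passed the test over all genes. At an FDR below 0.05 the count was 0 of 10, against 0.00725% of all genes. Only 1 gene was called in this table. At its p, a member needed a log2 change between 2.76 (Egr4) and 6.96 (Egr2) to be called. The lack of a call therefore does not show that the members were alike in the 2 genotypes. The log2 fold change was below 0 in 10 of 10, against 49.5% of all genes, with a median of -0.75 against 0.00. At an unadjusted p below 0.05, 5 of 10 members were lower, against 6.33% of all genes. In the authors' deposited table, Egr2 had -1.86 ± 0.52 (FDR = 0.291), Arc -1.23 ± 0.51 (FDR = 0.389) and Fos -1.12 ± 0.40 (FDR = 0.337). The other members at that level in the authors' deposited table were Nr4a1, with -0.92 ± 0.37 (FDR = 0.374), and Egr1, with -0.65 ± 0.28 (FDR = 0.405). Fosb and Egr4 had the smallest differences there, -0.22 ± 0.21 and -0.20 ± 0.21. This table shares its LPS mice with the tables of LPS against saline, so its values are not independent of theirs. Xist and Ddx3y also differed between these groups, as given above, and their part in the values was not tested.

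The saline groups were not compared in the deposited tables, and their difference was estimated without a test. Npas4, a transcription factor largely restricted to neurons and induced by calcium influx, was estimated at 14.1 CPM in cKO LPS, 25.6 CPM in control LPS, 12.3 CPM in cKO saline and 22.6 CPM in control saline. Both cKO groups were lower than both control groups, as they were by a smaller gap for Arc, Nr4a1, Fosb, Egr4 and Ier2. The saline estimate for Npas4, cKO minus control, was -0.88 on the log2 scale with an implied SE of 0.36, at the 0.123th percentile of all genes. After LPS its deposited difference was -0.86 ± 0.42 (FDR = 0.447). The saline estimate was -0.04 for Egr2 (implied SE 0.37), -0.06 for Fos (0.31) and 0.02 for Egr1 (0.28). It was -0.21 for Arc and -0.12 for Nr4a1. Taken from the saline levels instead, it was -0.88 for Npas4, 0.21 for Egr2, 0.08 for Fos and 0.11 for Egr1, so the sign for Egr2 and Fos depends on the estimate. Of the 10 members, 9 lay below 0 by the first estimate, against 47.3% of all genes, and 7 of 10 by the saline levels, against 48.6% of all genes. The saline groups differed in Xist and Ddx3y most of all, and the part of this in the estimates was not tested.

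Over the 4 estimated levels, control LPS was the highest group for 9 of 10 members, against 24.8% of all genes, and cKO LPS was the lowest for 6 of 10, against 29% of all genes. On a scale of mean log2 CPM per kilobase of the longest transcript, Arc was highest at 6.57. Junb followed at 5.08, Nr4a1 at 5.00, Egr1 at 4.83 and Fos at 4.05. On the same scale Egr4 stood at 2.45, Npas4 at 2.23, Egr2 at 2.08, Ier2 at 1.76 and Fosb at 1.64. Neighbours in this order differed by more than the implied SD between mice in the genotype table at the steps from Arc to Junb, Egr1 to Fos and Fos to Egr4, and by less at the other steps.

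The members varied between mice more than most genes. The SD per mouse implied by the deposited tests had a median over the members of 0.57 (log2) in the comparison of genotypes after LPS, against 0.17 for all genes. It was 0.35 against 0.14 for LPS in cKO mice, and 0.42 against 0.14 for LPS in controls. Arc had an implied SD of 0.81 in the genotype comparison, against a median of 0.0970 for the 628 genes within 0.5 log2 CPM of it. Among genes of like level, 9 of 10 members lay above the 90th percentile of spread in the genotype comparison, 8 of 10 in the cKO comparison and 9 of 10 in the control comparison. In cKO mice the implied SD was smallest for Fosb, 0.22, and largest for Npas4, 0.60.

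**Figure D4:**
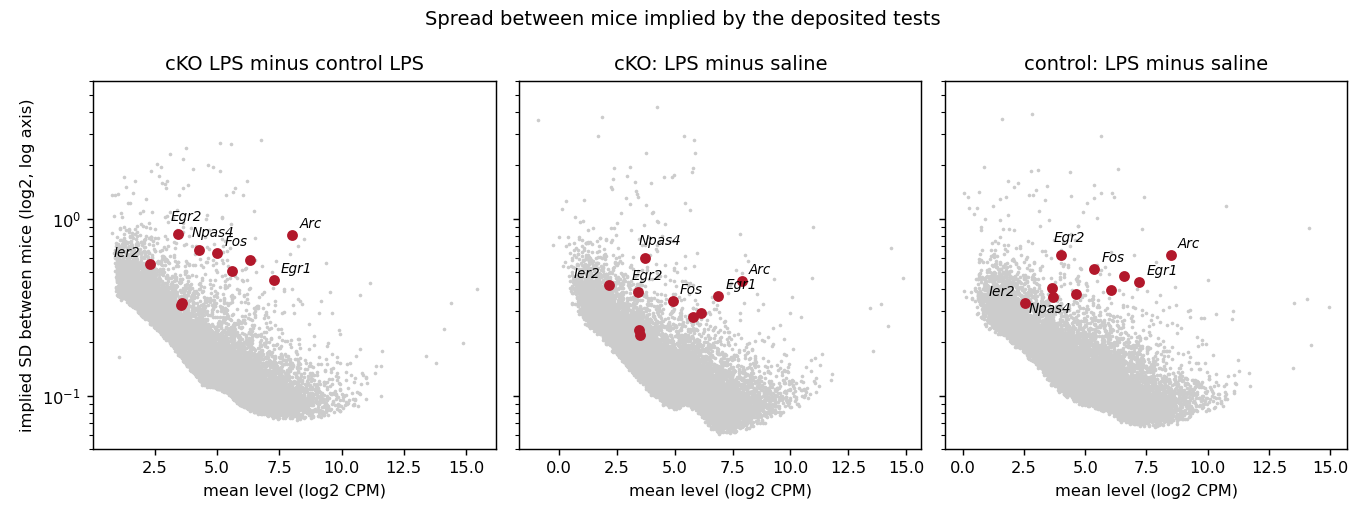
SD between mice (log2, on a log axis) implied by each deposited test against the mean level (log2 CPM), for all genes in grey and the 10 immediate early genes marked. The members lie in the upper part of the cloud at their level in each comparison, with Arc at 0.81 in the comparison of genotypes.

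Relatives of the members were read from lists of the same families. Of 8 other AP-1 genes, 3 were measured (Jun, Jund and Fosl2), and 0 were called in cKO mice or between genotypes. Over all genes, 19.5% were called in cKO mice, 9.76% in controls and 0.00725% between genotypes. Jund fell by 0.48 ± 0.10 after LPS in controls in the authors' deposited table (FDR = 0.0166), and had -0.06 ± 0.12 in cKO mice. For cKO minus control after LPS, 2 of the 3 lay above 0 and 1 below, against 49.5% of all genes below 0. The deposited values were 0.34 ± 0.11 for Jund (FDR = 0.298), 0.07 ± 0.14 for Jun and -0.31 ± 0.13 for Fosl2 (FDR = 0.398). Of the 5 other EGR and NR4A genes and EGR corepressors, 2 fell after LPS in cKO mice, against 8.52% of all genes, and 0 were called in the other comparisons. The 2 that fell were Nab1, by 0.29 ± 0.06 (FDR = 0.0175), and Nab2, by 0.34 ± 0.10 (FDR = 0.0383), in the authors' deposited table. Both encode corepressors that bind EGR proteins. Egr3 had a deposited value of -0.30 ± 0.12 (FDR = 0.363) for cKO minus control after LPS, where 5 of 5 lay below 0, against 49.5% of all genes.

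Of 36 other rapid primary response genes measured, 4 rose and 10 fell after LPS in cKO mice, 2 rose and 0 fell in controls, and 0 were called between genotypes or for the difference of responses. Over all genes, 10.9% were called higher and 8.52% lower in cKO mice, and 6.46% higher and 3.31% lower in controls. Between genotypes, and likewise for the difference of responses, 0.00725% of all genes were called. In the authors' deposited table for cKO mice, Zfp36l1 rose by 1.11 ± 0.26 (FDR = 0.0193) and Zfp36 rose by 0.84 ± 0.24 (FDR = 0.0363). Both promote the decay of AU-rich transcripts. In the authors' deposited table for controls, Zfp36l1 rose by 1.09 ± 0.22 (FDR = 0.0182) and Zfp36 rose by 1.03 ± 0.21 (FDR = 0.0183). Myc rose by 1.05 ± 0.28 in cKO mice (FDR = 0.0320) and had 0.62 ± 0.31 in controls (FDR = 0.225) in the authors' deposited tables. Klf10, a Krüppel-like factor, fell by 0.90 ± 0.12 in cKO mice (FDR = 0.00455) and had -0.06 ± 0.19 in controls (FDR = 0.875) in the authors' deposited tables. For cKO minus control after LPS, 28 of the 36 lay below 0, against 49.5% of all genes, with a median of -0.28. In that deposited table Klf10 had -0.95 ± 0.21 (FDR = 0.229) and Homer1, a postsynaptic scaffold gene with an activity-induced short form, -0.44 ± 0.10 (FDR = 0.229).

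Of 27 delayed activity-regulated genes of neurons measured, 1 rose and 4 fell after LPS in cKO mice, 1 rose and 1 fell in controls, and 0 were called between genotypes, beside the shares of all genes given for the list before. Pdyn, which encodes prodynorphin, rose by 0.90 ± 0.10 in cKO mice (FDR = 0.00341) and rose by 0.72 ± 0.12 in controls (FDR = 0.00976) in the authors' deposited tables. Rgs4, a regulator of G-protein signalling, fell by 0.33 ± 0.09 in cKO mice (FDR = 0.0296) and fell by 0.27 ± 0.07 in controls (FDR = 0.0406) in the authors' deposited tables. Spred1, an inhibitor of ERK signalling, fell by 0.31 ± 0.07 in cKO mice (FDR = 0.0205) and had -0.17 ± 0.08, with no call, in controls in the authors' deposited tables. Nptx2, a neuronal pentraxin, fell by 0.28 ± 0.09 in cKO mice (FDR = 0.0459) and had 0.01 ± 0.15 in controls (FDR = 0.965) in the authors' deposited tables. For cKO minus control after LPS, 17 of the 27 lay below 0 and 10 above, with a median of -0.08, and 49.5% of all genes lay below 0. The smallest p-values there were those of Inhba and Gpr3. Inhba, which encodes an activin subunit, had -0.49 ± 0.15 (FDR = 0.292) and the receptor gene Gpr3 had -0.71 ± 0.21 (FDR = 0.292) in the authors' deposited table.

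**Figure D5:**
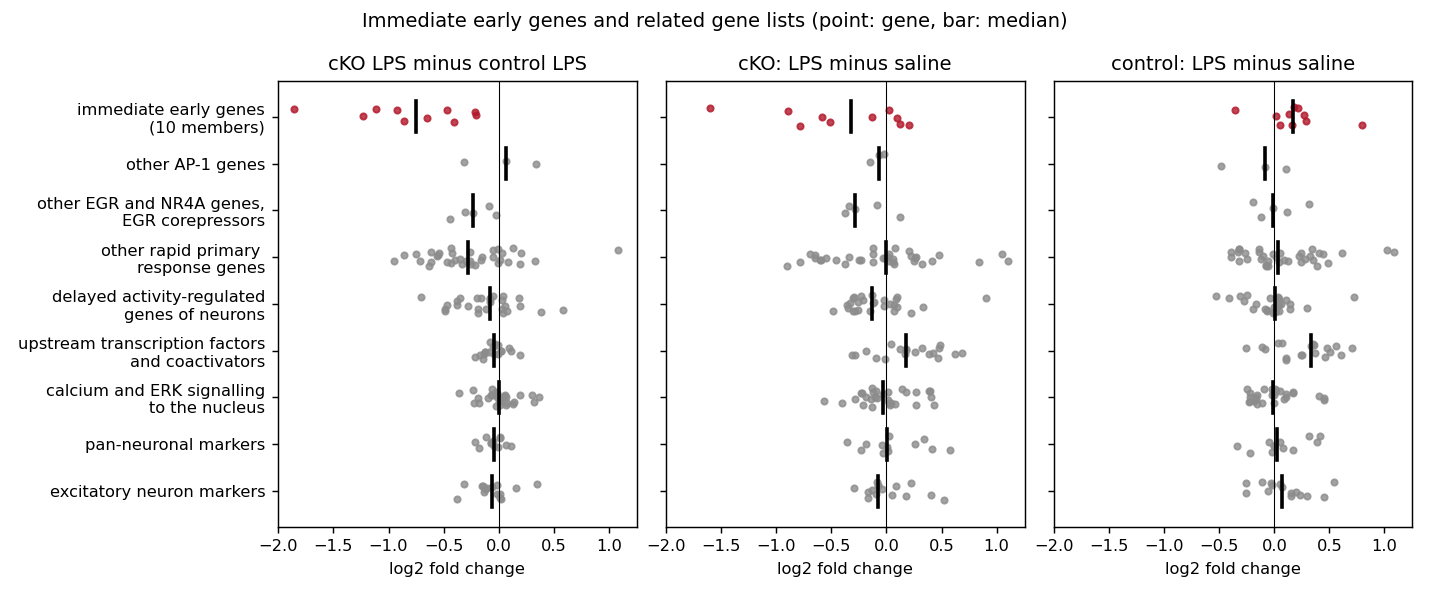
Log2 fold changes of single genes (points) and their median (bar) for the 10 immediate early genes and 8 related lists in the 3 comparisons. For cKO LPS minus control LPS the members have a median of -0.75, the other rapid primary response genes -0.28 and the pan-neuronal markers -0.05.

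Of 19 transcription factors and coactivators upstream of these genes, 6 rose and 1 fell after LPS in cKO mice, 8 rose and 0 fell in controls, and 0 were called between genotypes or for the difference of responses. The shares of all genes called were 10.9% higher and 8.52% lower in cKO mice, and 6.46% higher and 3.31% lower in controls. The share was 0.00725% between genotypes and for the difference of responses. The median log2 fold change of the list was 0.17 in cKO mice and 0.33 in controls. The gene that fell was Creb1, by 0.28 ± 0.06 in cKO mice in the authors' deposited table (FDR = 0.0145). In controls Creb1 had a deposited value of -0.11 ± 0.06 (FDR = 0.289). Crtc1, a CREB coactivator, rose by 0.68 ± 0.12 in cKO mice (FDR = 0.00886) and rose by 0.70 ± 0.12 in controls (FDR = 0.00867) in the authors' deposited tables. Its relative Crtc2 rose by 0.62 ± 0.14 in cKO mice and rose by 0.56 ± 0.15 in controls, and Mef2d rose by 0.47 ± 0.10 in cKO mice and rose by 0.48 ± 0.11 in controls, in the authors' deposited tables. Elk4, an SRF partner, rose by 0.47 ± 0.11 in cKO mice (FDR = 0.0229) and rose by 0.60 ± 0.13 in controls (FDR = 0.0217) in the authors' deposited tables. Mrtfa, an SRF coactivator, rose by 0.49 ± 0.07 in cKO mice (FDR = 0.00617) and had 0.37 ± 0.12 in controls (FDR = 0.0848) in the authors' deposited tables. Of 29 genes of calcium and ERK signalling, 4 rose and 4 fell in cKO mice, and 3 rose and 3 fell in controls. These stand beside 10.9% higher and 8.52% lower of all genes in cKO mice, and 6.46% and 3.31% in controls. Between genotypes 0 of the 29 were called, against 0.00725% of all genes. Rps6ka3, which encodes an ERK-activated kinase, fell by 0.57 ± 0.08 in cKO mice (FDR = 0.00591) and had -0.23 ± 0.10 in controls (FDR = 0.175) in the authors' deposited tables. Its relative Rps6ka1 rose by 0.43 ± 0.10 in cKO mice (FDR = 0.0187) and rose by 0.40 ± 0.09 in controls (FDR = 0.0306) in the authors' deposited tables. Camk2a, a calcium-dependent kinase gene, rose by 0.40 ± 0.08 in cKO mice (FDR = 0.0132) and rose by 0.45 ± 0.08 in controls (FDR = 0.0124) in the authors' deposited tables.

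Markers of cell types were read beside the genotype difference after LPS, where 49.5% of all genes lay below 0. Pan-neuronal markers lay below 0 in 8 of 12 (median -0.05), with a summed log2 CPM of 12.99 in cKO LPS and 13.03 in control LPS. Excitatory neuron markers lay below 0 in 10 of 15 (median -0.06), with a summed log2 CPM of 11.86 in cKO LPS and 11.88 in control LPS. Inhibitory neuron markers lay above 0 in 9 of 12 (median 0.12), with a summed log2 CPM of 9.78 in cKO LPS and 9.73 in control LPS. Microglia markers lay below 0 in 12 of 12 (median -0.40), with a summed log2 CPM of 8.80 in cKO LPS and 9.12 in control LPS. Endothelial markers lay below 0 in 11 of 12 (median -0.24), with a summed log2 CPM of 8.62 in cKO LPS and 8.74 in control LPS. Pericyte and smooth muscle markers lay below 0 in 8 of 10 (median -0.22), with a summed log2 CPM of 8.04 in cKO LPS and 8.23 in control LPS. By median, these vascular and microglial lists lay on the same side of 0 as the members. So did the pan-neuronal, excitatory neuron and oligodendrocyte lists. Astrocyte markers lay above 0 in 7 of 12 (median 0.25), with a summed log2 CPM of 12.10 in cKO LPS and 12.01 in control LPS. Striatal neuron markers lay above 0 in 8 of 9 (median 0.63), with a summed log2 CPM of 9.45 in cKO LPS and 9.12 in control LPS. Oligodendrocyte markers lay below 0 in 6 of 10 (median -0.11), with a summed log2 CPM of 11.36 in cKO LPS and 11.39 in control LPS. Of 8 choroid plexus markers, 3 were measured, above 0 in 3 of 3 (median 0.84), with a summed log2 CPM of 4.47 in cKO LPS and 3.51 in control LPS. None of these cell type markers was called between genotypes, where 0.00725% of all genes were called, so the lack of calls does not show alike levels. Some markers had low levels, such as Dlx5, with an estimated log2 CPM of 0.19 in control saline. Some of these lists also moved between saline and LPS. The shares of all genes were 10.9% higher and 8.52% lower in cKO mice, and 6.46% higher and 3.31% lower in controls. At an FDR below 0.05, 7 of 12 endothelial markers rose and 0 fell in cKO mice, with 10 and 0 in controls. Of 12 microglia markers, 5 rose and 2 fell in cKO mice, and 8 rose and 0 fell in controls. Of 12 astrocyte markers, 1 rose and 4 fell in cKO mice, and 2 rose and 3 fell in controls. In cKO mice, 3 of 12 inhibitory neuron markers rose and 0 fell, and 2 of 9 striatal neuron markers rose and 1 fell. Neither list had a call in controls. In each genotype, 2 of 15 excitatory neuron markers and 1 of 10 pericyte and smooth muscle markers rose, and 0 fell. Of 10 oligodendrocyte markers, 1 fell in cKO mice and 0 were called in controls. The 3 choroid plexus markers lay below 0 in both genotypes, with 0 called. Their sum went from 117 CPM with saline to 22.1 with LPS in cKO mice, and from 114 to 11.4 in controls. The part of the cell type markers in the values of the members was not tested in any comparison.

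Genes were ranked by their distance from the median profile of the members over the 4 estimated group levels. Levels were centred on the mean of each gene, and the distance was the root mean square. That profile was -0.38 in cKO LPS, 0.36 in control LPS, -0.02 in cKO saline and 0.14 in control saline (log2). The nearest of 13015 other genes were Gm10033 (distance 0.0434), Eps8l1 (0.0757), Adamts1 (0.0781), Alpk1 (0.0900), Slc16a1 (0.0907) and Gpr3 (0.0918), against a median distance of 0.288. Of the members, Nr4a1 was nearest to their median (0.0630) and Egr2 furthest (0.457). Npas4 (0.294) also lay further from it than the median distance, and Egr1 (0.286) about as far. The others lay between 0.118 (Ier2) and 0.240 (Junb). The median profile, and so the genes nearest to it, does not stand for each member. A likeness over 4 groups describes these estimates only.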

How the data were processed

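Bulk cortex RNA of 18 mice was measured from ribosome-depleted stranded libraries, per the labels' protocols. The submitters' processing notes name cutadapt 3.5, STAR, RSEM, edgeR 3.30.3 and the build GRCm39, without roles or order. The tables give, per the file headers, the log2 fold change and mean log2 CPM of a gene, an F statistic (used here as a score), a p-value and a Benjamini-Hochberg FDR. How genes were filtered and how deep each library was sequenced are unknown here. The labels do not say how mice were paired or littered. The p-values take the mice as independent, which could not be checked.

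Direction is not given in the headers. Every table was read as cKO minus control or LPS minus saline. The levels of a group from different tables then differed over all genes by an SD of 0.0503 (cKO LPS) and 0.0537 (control LPS). Every other reading gave an SD of about 0.222 or more in a group. For the members, the cKO LPS levels differed between tables by a median of 0.0898 (log2). The largest gap was 0.267, for Egr2, with a log2 CPM of 2.50 against 2.23 from the genotype table. Standard errors are the absolute fold change over the root of F, and 95% intervals use denominator degrees of freedom found from F and p (8.66 for genotype, 9.76 for cKO and 9.85 for control). The difference of LPS responses used standard errors from the normal quantile of p, a z test and Benjamini-Hochberg adjustment over all genes, and was tested on simulated data. Lengths and GC content came from GENCODE M21 (99.6% of genes matched). Implied SDs take mice as equally weighted. Python 3.11.15, pandas 2.3.3, numpy 2.4.6, scipy 1.17.1 and matplotlib 3.10.9 were used.

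The members and lists were chosen with earlier results of these data known. Named genes are the members, Chd8, sex-linked transcripts, the 6 nearest profiles and, from each list, called genes up to 4 by size or, with none called, up to 2 by p. Not all of these are printed, and cell type markers are given as whole lists. Camk2a is in 2 lists. Alternatives were a minimum mean log2 CPM of 1, an FDR below 0.1, a minimum fold change of 1.5, re-centring, removal of a length and GC trend, other standard errors and other level estimates.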

Additional observations from a re-analysis of the deposited data

How the results depend on the processing

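No paired analysis was possible because the deposited tables hold no values per library, and for the same reason no mouse could be left out. For LPS in cKO mice, 2 members were called, against 5 at an FDR below 0.1 (with Junb, Arc and Nr4a1 added) and 3 with the length and GC trend removed (with Junb, adjusted p = 0.0480). Fos and Egr2 were called under each alternative run on that table, and Fos had an adjusted p of 0.0405 with the trend removed. For the difference of LPS responses, 0 members passed, against 1 (Egr2, adjusted p = 0.0383) with standard errors from the F statistic and a normal test. With Satterthwaite degrees of freedom, chosen after seeing the data like the levels from the genotype table, 0 passed. Of the single-member values checked under the alternatives, 195 stayed on the same side of the threshold and 5 gained a call in the same direction. An FDR below 0.1 and a minimum fold change of 1.5 leave the values themselves unchanged, and a minimum fold change cannot add a call. The 195 are therefore partly fixed by the settings. Of the 195, 2 changed sign without a call, both for LPS in cKO mice with the length and GC trend removed: Fosb had -0.08 and Egr1 -0.00155, against 0.02 for Fosb and 0.12 for Egr1 in the deposited table. With that trend removed, 8 of 10 members lay below 0 in cKO mice, against 6 of 10. All genes called for LPS in cKO mice numbered 2681, against 4092 at an FDR below 0.1 and 649 with a minimum fold change of 1.5. In controls the numbers were 1346, against 2557 and 498. For the difference of responses they were 1, against 103 with standard errors from the F statistic. Depth is unknown, so no counting error could be given.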
